A study of Mus musculus with 8 samples.

Results

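The alpha chain of the T cell receptor is built from a variable segment (TRAV) and a joining segment (TRAJ), and their use was measured in T cells from mouse liver metastases. A clone was the set of cells of 1 mouse whose strongest alpha contig had the same TRAV, TRAJ and nucleotide CDR3, and each clone counted once. Segments with at least 10 clones over the 4 mice were taken, which gave 121 of the 131 segments seen: 78 of 88 TRAV and 43 of 43 TRAJ. The 78 TRAV hold 10 to 156 clones each (median 41.5) and the 43 TRAJ hold 26 to 244 (median 86). TRAV15D-1-DV6D-1 was just inside the limit with 10 clones, and TRAV6D-5 and TRAV13N-3 were just outside it with 9 each.

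Live CD45+ leukocytes were sorted, with a CD45.2 antibody and 7-AAD, from liver metastatic tumours on day 30 after Venus-AKTPM/LOH colorectal cancer cells were injected into the spleen. 2 mice were Vav1CreTet2KO, in which Cre driven by Vav1, a gene of blood cell lineages, deletes Tet2, an enzyme that oxidises methylated cytosine. They are called knockout 1 and knockout 2. The 2 controls were Tet2fl/fl and are called control 1 and control 2. The tumour cells were the same in both groups, the sorted cells included every leukocyte lineage that carries Vav1-driven Cre, and the labels do not give the ages or say whether the controls carried Cre. Each mouse gave a 5' gene expression library and a TCR library, and the labels call the mice biological replicates.

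In a developing T cell, 1 TRAV is joined to 1 TRAJ on chromosome 14, and bases may be lost or added at the junction. The TRAV encodes the CDR1 and CDR2 loops, which often touch the MHC molecule, and the junction encodes CDR3, which often touches the peptide. When a first joining fails, the locus can rearrange again with a TRAV further upstream and a TRAJ further downstream, so that early joins use proximal TRAV with 5' TRAJ. CD8 T cells recognise peptides on MHC class I and CD4 T cells on MHC class II, while invariant natural killer T (NKT) cells (TRAV11 with TRAJ18) and mucosal-associated invariant T (MAIT) cells (TRAV1 with TRAJ33) recognise lipids on CD1d and metabolites on MR1.

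Of the 12 alpha sequences found in 3 or 4 mice, 7 are shown first because the same nucleotides were found in separate animals, and their cells are described below. They are the CDR3 of the TRA contig, 5′ to 3′, and capitals mark bases that matched neither germline segment in the reference genome (GRCm39).
TRAV11 TRAJ18, most cells: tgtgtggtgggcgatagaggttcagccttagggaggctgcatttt
TRAV11 TRAJ18, next most cells: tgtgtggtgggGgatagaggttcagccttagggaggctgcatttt
TRAV12D-3 TRAJ5: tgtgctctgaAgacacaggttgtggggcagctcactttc
TRAV21-DV12 TRAJ49: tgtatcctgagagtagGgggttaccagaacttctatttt
TRAV1 TRAJ33: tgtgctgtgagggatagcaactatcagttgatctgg
TRAV12-2 TRAJ52: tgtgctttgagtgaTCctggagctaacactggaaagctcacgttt
TRAV4-4-DV10 TRAJ50: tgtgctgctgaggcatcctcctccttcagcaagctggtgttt

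CDR1 and CDR2 are shown for members of the TRAV9 family, because its members went in opposite directions between CD8 and CD4 clones. They are the commonest CDR1 and CDR2 of the contigs of each segment. The V regions of these clones were identical to the named gene in the same genome, on the plus strand of chromosome 14. Capitals mark positions at which the 6 listed segments are not all the same.
TRAV9-1 CDR1: taTGGtgGATcCATttaC
TRAV9-4 CDR1: taCTCtgGGAcGCCttaT
TRAV9-2 CDR1: taCTCtgGGAcACCttaT
TRAV9N-3 CDR1: taCTTtgGGAcACCttaT
TRAV9-1 CDR2: tactatTcGggaAacccagtggtt
TRAV9-4 CDR2: tactatTcCggaGacccagtggtt
TRAV9-2 CDR2: tactatTcAggaGacccagtggtt
TRAV9N-3 CDR2: tactatCcAggaGacccagtggtt
TRAV9D-1 has the CDR1 and CDR2 of TRAV9-1, and TRAV9N-4 differs from TRAV9-2 within CDR1.

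The TCR libraries gave 6781 barcodes with an alpha contig (1988 in knockout 1, 2143 in knockout 2, 1184 in control 1 and 1466 in control 2) and 4048 clones (1021, 1219, 948 and 860 in the same order). The median number of unique molecular identifiers (UMIs) behind the alpha contig was 4 to 6 per mouse, and 506 barcodes rested on 1 UMI. The gene expression libraries held 57190926 to 91789597 UMIs in 10917 to 13870 barcodes. Tet2 had 25.8 and 21.4 UMIs per 1000000 in the alpha barcodes of the knockout mice and 44.3 and 38.3 in those of the controls; these UMIs need not lie in the deleted part of the gene. Cd3e was found in 94.9% to 99.0% of alpha barcodes. B cell markers (4 of 4) were found in a larger share of alpha barcodes in both knockout mice than in either control. Summed, they took 2.94 and 5.04 per 10000 UMIs against 0.48 and 0.47. Macrophage and monocyte markers (5 of 5) were found in a smaller share and took 8.74 and 6.23 against 30.0 and 39.7. The libraries of 2 mice shared 272 to 303 gene expression barcodes and 0 to 8 alpha barcodes, and no shared barcode held the same receptor.

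The TRAV copies limit what a single name means. Part of the array lies in the mouse genome in near-identical copies, marked D and N. The V region of 4028 clones (99.5%) was identical to the named gene, but in 1411 clones (34.9%) it was identical to another gene as well. These clones carried 24 TRAV names, 21 of them among the 78. Among those described below these are TRAV11 (identical to TRAV11D, to which 0 clones were assigned), TRAV12D-3 (TRAV12N-3), TRAV3N-3 (TRAV3D-3), TRAV9N-3 (TRAV9D-3), TRAV4N-3 (TRAV4D-3), TRAV4N-4 (TRAV4D-4), TRAV6N-7 (TRAV6D-7), TRAV6D-6 (TRAV6-6), TRAV7D-2 (TRAV7-2), TRAV12N-2 (TRAV12D-2), TRAV14N-1 (TRAV14D-1), TRAV14N-2 (TRAV14D-2), TRAV15D-1-DV6D-1 (TRAV15N-1), TRAV6-5 (TRAV6N-5) and TRAV7N-6 (TRAV7D-6), so their copy and position are uncertain. Families, in which all copies are summed, do not depend on the copy.

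The gene expression library is another readout of the TRAV that a cell transcribes. Of alpha barcodes, 78.1% had a UMI of some Trav gene there, and 73.7% of the 22325 Trav UMIs belonged to the segment named by the TCR contig. In the median segment, 94.75% of its barcodes had a UMI of it, against 0.392% of the barcodes of other families. In 17 of the 78 segments fewer than 10% of barcodes had a UMI of the segment, and all 17 were among the 21 with an identical copy. In 13 segments, TRAV12D-3 and TRAV6D-6 among them, the share was 0%. The share was also low in TRAV9D-1 (35%) and TRAV9N-4 (28%), which have no identical copy, so these names are less certain too.

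Across all clones, no TRAV was dominant. TRAV6D-6 had the most clones, 156, and took 3.72% and 3.69% of the clones of the knockout mice and 3.80% and 4.30% of those of the controls. It was followed by TRAV7D-2 (152 clones), TRAV12-2 (142), TRAV3N-3 (132) and TRAV12D-3 (123). The effective number of TRAV, the number of equally used segments that would give the same chance of drawing 1 segment from a pair of clones, was 58.5 and 54.1 in knockout mice and 50.5 and 58.4 in controls. TRAJ22 was the most used joining segment, with 244 clones, at 8.03% and 5.41% in knockout mice and 5.38% and 5.23% in controls. Knockout 1 stood above the other 3 mice there. TRAJ31 (208 clones), TRAJ23 (193), TRAJ27 (161) and TRAJ30 (160) came next, and the effective number of TRAJ was 31.5 and 33.7 against 35.3 and 33.1.

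**Figure D1:**
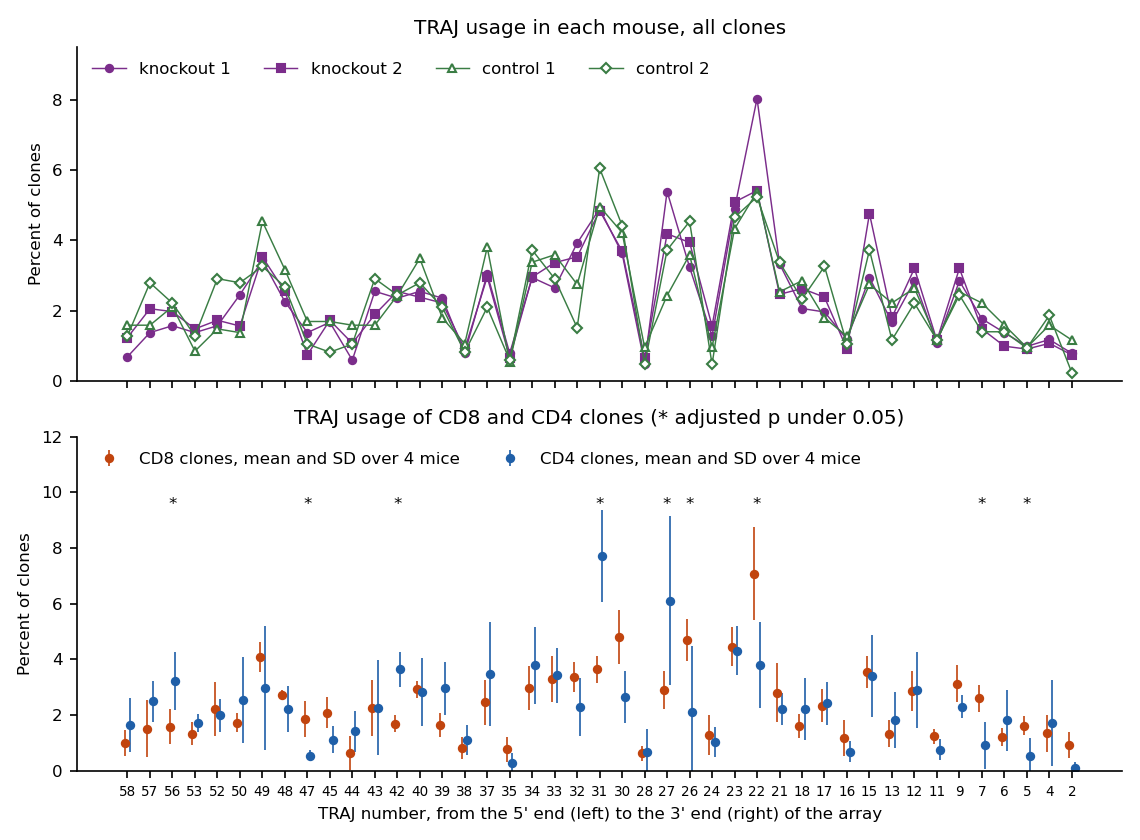
TRAJ usage in 5' to 3' order. The upper panel gives the percent of clones in each mouse (purple, knockout; green, control) and the lower panel the mean ± SD over 4 mice of the percent of CD8 (orange) and CD4 (blue) clones, with stars at the 9 segments called between lineages. The 4 mice follow 1 profile with peaks at TRAJ49, TRAJ31 and TRAJ22, and CD4 clones lie above CD8 clones at TRAJ31 and TRAJ27.

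The use of segments was compared between knockout and control mice to ask whether deletion of Tet2 in blood cells went with another alpha repertoire. No segment was called. With edgeR's quasi-likelihood test at an adjusted p under 0.05, 0 of 78 TRAV (0%) and 0 of 43 TRAJ (0%) differed. At an unadjusted p under 0.05 there were 5 TRAV (6.41%) and 3 TRAJ (6.98%), and DESeq2 also called 0 of either. The standard error of a log2 difference was 0.45 for the median TRAV and 0.32 for the median TRAJ. The median log2 difference was 0.04 over TRAV and -0.10 over TRAJ. Knockout values lay above both controls in 15 TRAV (19.2%) and below both in 13 (16.7%), and for TRAJ in 10 each way (23.3% each).

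The segments nearest to a call are given for reference. TRAV12D-3 took 3.82% and 3.36% of knockout clones and 2.32% and 2.44% of control clones, a log2 difference of 0.58 ± 0.21 (SE; edgeR adjusted p = 0.617). TRAV14N-2 took 0.979% and 1.07% against 2.00% and 1.74% (-0.87 ± 0.29). For both segments the mice of the 2 groups did not overlap. The other TRAV by the same rule were TRAV9D-1 (1.73 ± 0.66) and TRAV12N-2 (0.57 ± 0.23) on the higher side and TRAV9N-4 (-0.85 ± 0.39) and TRAV8D-1 (-1.27 ± 0.72) on the lower. Among TRAJ the smallest p belonged to TRAJ24 (0.98 ± 0.36, edgeR adjusted p = 0.715), TRAJ32 (0.78 ± 0.29) and TRAJ27 (0.64 ± 0.25) on the higher side, and to TRAJ4 (-0.61), TRAJ44 (-0.64) and TRAJ40 (-0.36) on the lower. Without control 1, TRAJ32 alone passed (1.29, edgeR adjusted p = 0.0364). It took 3.92% and 3.53% of knockout clones against 2.74% and 1.51%.

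Of 19 TRAV families, 1 was called (5.26%). The TRAV12 family, with 489 clones, took 13.3% and 13.9% of knockout clones and 10.3% and 10.0% of control clones (0.42 ± 0.12, edgeR adjusted p = 0.0309). The call rested on all 4 mice: without any 1 of them the log2 difference was 0.39 to 0.45 and the edgeR adjusted p was 0.0733 without knockout 1, 0.173 without knockout 2, 0.178 without control 1 and 0.29 without control 2. DESeq2 gave 0.38 with an adjusted p of 0.986. Within CD8 clones the family took 17.1% and 17.6% against 12.4% and 14.4%, and within CD4 clones 6.56% and 9.03% against 5.03% and 6.52%. The TRAV12 family was also used more by CD8 than by CD4 clones, and CD8 clones made up 50.9% and 44.2% of knockout clones and 51.8% and 35.5% of control clones. The part of the B cell and macrophage marker UMIs in this difference was not tested.

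CD8 and CD4 clones were compared within mice. A clone was CD8 where its cells had at least 1 UMI of Cd8a or Cd8b1 and 0 of Cd4, and CD4 where the reverse held. This gave 1855 CD8 clones (520, 539, 491 and 305 in knockout 1, knockout 2, control 1 and control 2) and 941 CD4 clones (244, 288, 179 and 230). The other 1252 were in neither class, 1168 of them with no UMI of these genes and 84 with UMIs of both. Cd4 is thinly sampled, with a UMI in 21.3% of alpha barcodes, and CD8 cells had the deeper profiles, with median UMIs of 4312 to 5308.5 per mouse against 3657.5 to 4438 in CD4 cells. Doublets were not called.

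TRAV use differed between the lineages. edgeR, with mouse as a term, called 16 of 78 TRAV (20.5%), 8 higher in CD8 clones (10.3%) and 8 higher in CD4 clones (10.3%). The calls fell into families: TRAV16, TRAV12 and TRAV3 segments were on the CD8 side, TRAV4 and TRAV14 segments on the CD4 side, and TRAV9 segments on both. Every called segment kept its direction in every alternative tried. DESeq2 called 7 (TRAV12-2, TRAV16, TRAV16N, TRAV3N-3, TRAV4-4-DV10, TRAV9-1 and TRAV9-4), and without knockout 2 edgeR called 10. Counted over cells in place of clones, edgeR called 8, of which 7 were among the 16 (TRAV16, TRAV16D-DV11, TRAV4-4-DV10, TRAV9-1, TRAV9D-1, TRAV14-3 and TRAV14N-3). Where a lineage needed 2 or more UMIs, edgeR called 11 of the 16, all but TRAV12D-3, TRAV16D-DV11, TRAV3-1, TRAV9N-3 and TRAV6N-7. CD8 values lay above CD4 values in all 4 mice for 14 TRAV (17.9%) and below for 15 (19.2%). The median log2 difference over all 78 was 0.19, and 0.45 with TMM factors, so that a shift of 0.26 depends on the scaling. Differences of the called segments are 1.10 or more in size.

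**Figure D2:**
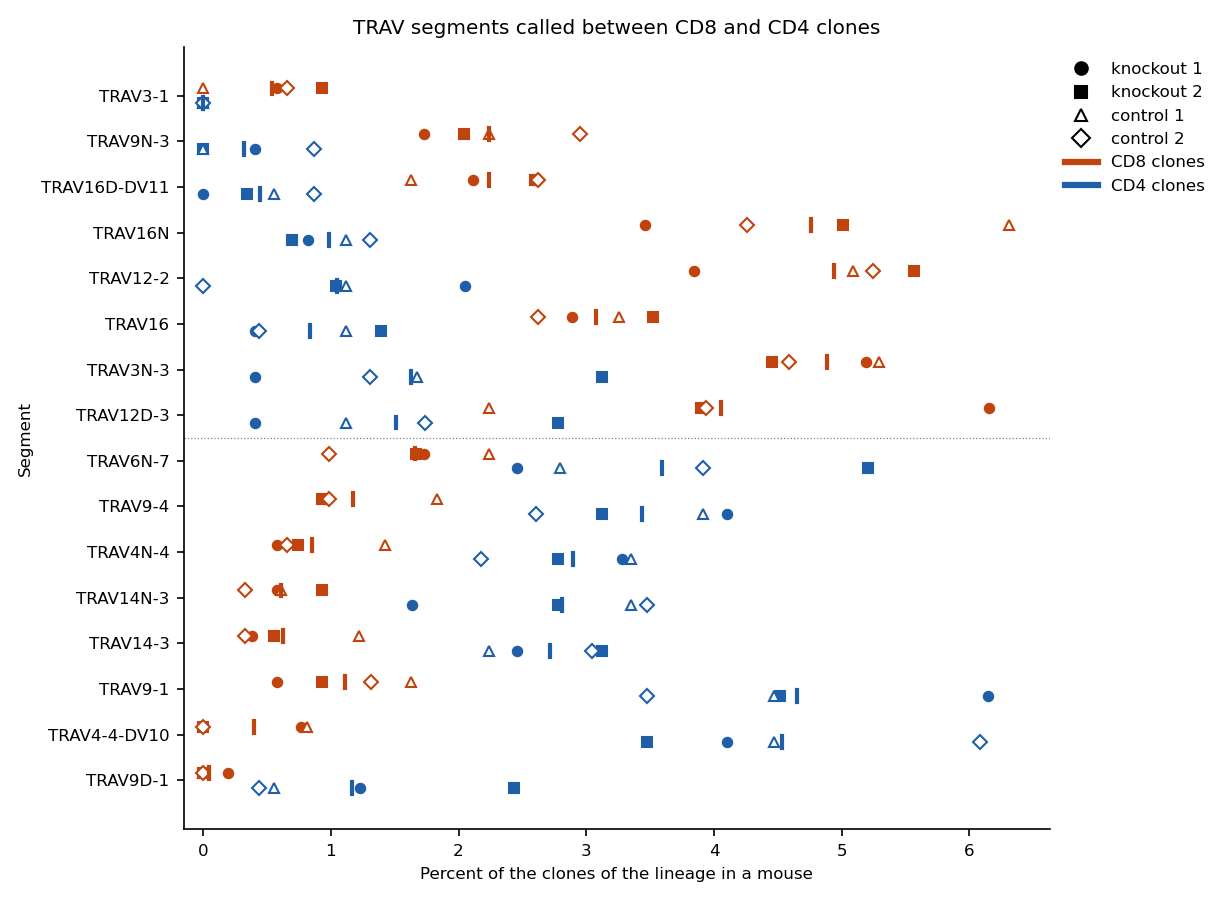
Percent of clones in each mouse for the 16 TRAV called between lineages (orange, CD8 clones; blue, CD4 clones; symbols, mice; vertical bars, means over 4 mice). Above the dotted line CD8 clones are higher and below it CD4 clones are higher. The 4 CD8 values and the 4 CD4 values do not overlap for TRAV16N, TRAV4-4-DV10 and TRAV9-1, among others, but overlap for TRAV12D-3.

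The TRAV16 segments were the most CD8-sided group. TRAV16N, in the middle of the array (chromosome 14, 53588485 to 53589078), took 3.46%, 5.01%, 6.31% and 4.26% of CD8 clones in knockout 1, knockout 2, control 1 and control 2, and 0.82%, 0.694%, 1.12% and 1.3% of CD4 clones. The lowest CD8 value was above the highest CD4 value, and the log2 difference was 2.25 ± 0.43 (SE; edgeR adjusted p = 4.42e-05). TRAV16, near the TRAJ end (53980561 to 53981162), took 2.88%, 3.52%, 3.26% and 2.62% against 0.41%, 1.39%, 1.12% and 0.435%. Its difference was 1.82 ± 0.46 (edgeR adjusted p = 0.00109), and it was called in 17 of 17 alternatives. TRAV16D-DV11, in the distal part, which can also join to delta segments, took 2.12%, 2.60%, 1.63% and 2.62% against 0%, 0.347%, 0.559% and 0.87% (2.35 ± 0.55), and its call was lost without knockout 2 (2.16). The 3 segments lie in different parts of the array and had the same direction.

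In the TRAV12 family, TRAV12-2 took 3.85%, 5.57%, 5.09% and 5.25% of CD8 clones and 2.05%, 1.04%, 1.12% and 0% of CD4 clones (2.16 ± 0.44, edgeR adjusted p = 8.56e-05). Without knockout 2 the difference was 2.06 and no longer called (edgeR adjusted p = 0.211). TRAV12D-3 took 6.15%, 3.9%, 2.24% and 3.93% against 0.41%, 2.78%, 1.12% and 1.74% (1.38 ± 0.41). Its lowest CD8 value, in control 1, was under the highest CD4 value, in knockout 2, although CD8 was higher within each mouse, and the call was lost without knockout 1. TRAV3N-3 took 5.19%, 4.45%, 5.30% and 4.59% against 0.41%, 3.12%, 1.68% and 1.3% (1.5 ± 0.39, edgeR adjusted p = 0.00142). TRAV3-1 was found in 10 CD8 and 0 CD4 clones, which is at least 1.69-fold higher when 3 clones over all mice are taken as the floor, and its call held in 4 of 14 alternatives. TRAV12-1 (27 CD8 and 5 CD4 clones), TRAV12-3 (32 and 14), TRAV12N-2 (58 and 22), TRAV3-3 (46 and 16) and TRAV3-4 (10 and 4) were not called.

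On the CD4 side, TRAV4-4-DV10 had the smallest p of all TRAV. It took 0.769%, 0%, 0.815% and 0% of CD8 clones and 4.10%, 3.47%, 4.47% and 6.09% of CD4 clones in the same order of mice. The difference was -3.28 ± 0.46 (edgeR adjusted p = 3.99e-08), and it was called in 17 of 17 alternatives. TRAV4N-4, which has the same CDR1 and CDR2, took 0.577%, 0.742%, 1.43% and 0.656% against 3.28%, 2.78%, 3.35% and 2.17% (-1.76 ± 0.41). The other TRAV4 segments, TRAV4-2 (2 CD8 and 7 CD4 clones), TRAV4-3 (15 and 8) and TRAV4N-3 (12 and 4), were not called. TRAV4-3 and TRAV4N-3 are unlike the called segments in CDR1 and CDR2, as the following lines show, with capitals at positions that are not the same in all 4.
TRAV4-4-DV10 and TRAV4N-4 CDR1: aCcAcCATgaGGGct
TRAV4-3 CDR1: aTcGcCGCgaCAAct
TRAV4N-3 CDR1: aTcGcTGCgaCAAct
TRAV4-4-DV10 and TRAV4N-4 CDR2: TtggCTTcaggaaca
TRAV4-3 CDR2: CtggTTCcaggaaca
TRAV4N-3 CDR2: CtggTGCcaggaaca
TRAV4-4-DV10 and TRAV4N-4 differ from TRAV4N-3 at 8 bases of CDR1 and 4 of CDR2, and TRAV4-3 differs from it at 1 base of each. Over the 258 bases of the V region, TRAV4-4-DV10 differs from TRAV4N-3 at 32, TRAV4N-4 at 31 and TRAV4-3 at 7. The uncalled TRAV4-2 is not among these lines, and the part of any of these bases in the calls was not tested.

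The TRAV14 family also held called and uncalled segments. TRAV14-3 took 0.385%, 0.557%, 1.22% and 0.328% of CD8 clones and 2.46%, 3.12%, 2.23% and 3.04% of CD4 clones (-2.06 ± 0.46, edgeR adjusted p = 0.000349), a call that was lost without knockout 2 (-1.94). TRAV14N-3 took 0.577%, 0.928%, 0.611% and 0.328% against 1.64%, 2.78%, 3.35% and 3.48% (-2.03 ± 0.46). In both, the CD4 values lay above all CD8 values. TRAV14-1 (15 CD8 and 5 CD4 clones), TRAV14-2 (24 and 18), TRAV14N-1 (29 and 17), TRAV14N-2 (25 and 16) and TRAV14D-3-DV8 (13 and 15) were not called. The CDR1 of TRAV14-3 and TRAV14N-3 is the same and differs from that of TRAV14N-2 at 3 of its bases. The uncalled TRAV14D-3-DV8 has the same CDR1 as TRAV14-3 and TRAV14N-3. Its difference lay on the same side (-1.09 ± 0.59, edgeR adjusted p = 0.205), and the part of CDR1 in the calls was not tested. Capitals again mark positions that vary in the set.
TRAV14-3 and TRAV14N-3 CDR1: AacagTGcttttGactac
TRAV14-2 and TRAV14N-2 CDR1: GacagCActtttGactac
TRAV14-1 and TRAV14N-1 CDR1: GacagCActtttAactac

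In the TRAV9 family the members went both ways. TRAV9-1 took 0.577%, 0.928%, 1.63% and 1.31% of CD8 clones and 6.15%, 4.51%, 4.47% and 3.48% of CD4 clones (-2.12 ± 0.37, edgeR adjusted p = 9.24e-06). TRAV9-4 took 0.962%, 0.928%, 1.83% and 0.984% against 4.10%, 3.12%, 3.91% and 2.61% (-1.56 ± 0.38). For TRAV9D-1, only 35% of its barcodes had a UMI of it in the gene expression library. It was found in 1 CD8 and 12 CD4 clones, a ratio of 23.7 with a counting interval of 3.5 to 1011. In contrast, TRAV9N-3 was found in 40 CD8 and 3 CD4 clones, a ratio of 6.76 in favour of CD8 (counting interval 2.15 to 34.2; edgeR adjusted p = 0.000349). It took 1.73%, 2.04%, 2.24% and 2.95% of CD8 clones and 0.41%, 0%, 0% and 0.87% of CD4 clones. TRAV9-2 (24 CD8 and 23 CD4 clones) and TRAV9N-4 (9 and 11) were not called.

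The sequences shown above place these values beside small differences in the segments. Over the 270 bases of the V region, TRAV9N-3 differs from TRAV9-2 at 5 bases, 1 in CDR1 and 1 in CDR2, from TRAV9-4 at 7, from TRAV9N-4 at 9 and from TRAV9-1 at 50. TRAV9-1 and TRAV9N-3, called in opposite directions, thus differ at many bases, while TRAV9-4 and TRAV9N-3, also called in opposite directions, differ at few. The remaining call, TRAV6N-7, was found at 1.73%, 1.67%, 2.24% and 0.984% of CD8 clones and 2.46%, 5.21%, 2.79% and 3.91% of CD4 clones (-1.10 ± 0.36, edgeR adjusted p = 0.0172), and it was lost with TMM factors, with DESeq2, over cells, with a lineage of 2 or more UMIs, without knockout 2 and without control 2.

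Over whole families, 8 of 19 were called (42.1%), 4 in each direction (21.1% each), 9 had an unadjusted p under 0.05 (47.4%), and with TMM factors 5 were higher in CD8 clones and 3 lower. TRAV16 had 188 CD8 and 21 CD4 clones (2.16 ± 0.26), TRAV12 289 and 66 (1.16 ± 0.15), TRAV3 157 and 36 (1.13 ± 0.25) and TRAV13 171 and 53 (0.73 ± 0.21). TRAV4 had 53 and 88 (-1.73 ± 0.29), TRAV9 121 and 127 (-1.05 ± 0.17) and TRAV14 130 and 123 (-0.90 ± 0.16). TRAV17, a family of 1 segment with 5 and 10 clones (-1.88 ± 0.73), was lost with TMM factors, with DESeq2 and without any 1 of knockout 1, knockout 2 and control 1. The TRAV13 call was lost without knockout 1 and the TRAV9 call without knockout 2.

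TRAJ use also differed between the lineages, but the calls depended on the tool and on single mice. edgeR called 9 of 43 TRAJ (20.9%), 5 higher in CD8 clones (11.6%) and 4 higher in CD4 clones (9.3%). DESeq2 called 0, with 4 at an unadjusted p under 0.05. edgeR called 0 without knockout 2, 1 without knockout 1 and 3 without control 1, and it called 0 when barcodes with B cell or macrophage marker UMIs or no Cd3 UMI were left out. TRAJ31 took 4.04%, 3.71%, 3.87% and 2.95% of CD8 clones and 7.79%, 6.94%, 6.15% and 10.0% of CD4 clones (-1.04 ± 0.24, edgeR adjusted p = 0.00124). Its CD4 values lay above all its CD8 values.

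TRAJ27 took 3.85%, 2.23%, 2.85% and 2.62% of CD8 clones against 9.84%, 7.29%, 3.35% and 3.91% of CD4 clones (-1.12 ± 0.32), with the CD4 values of the knockout mice above those of the controls. TRAJ42 took 1.73%, 1.67%, 2.04% and 1.31% against 4.10%, 4.17%, 2.79% and 3.48% (-1.11 ± 0.35), and TRAJ56 had a difference of -1.10 ± 0.40. On the CD8 side, TRAJ22 took 9.42%, 6.49%, 5.50% and 6.89% against 5.33%, 3.82%, 1.68% and 4.35% (0.88 ± 0.25, edgeR adjusted p = 0.00897). TRAJ26 took 4.42%, 5.75%, 4.68% and 3.93% against 0.82%, 1.39%, 0.559% and 5.65% (1.22 ± 0.39), so that control 2 went the other way. The others on this side were TRAJ47 (1.68 ± 0.57), TRAJ5 (1.58 ± 0.59) and TRAJ7 (1.39 ± 0.51).

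The lineage difference was not shown to depend on genotype. The interaction term of edgeR was called for 0 of 78 TRAV (0%) and 0 of 43 TRAJ (0%), with 1 TRAV (1.28%) and 2 TRAJ (4.65%) at an unadjusted p under 0.05. The TRAV was TRAV19 (-5.63 ± 2.09, edgeR adjusted p = 0.605), with 23 CD8 clones and 6 CD4 clones, the latter found in knockout mice only. The TRAJ were TRAJ43 (-1.97 ± 0.84) and TRAJ34 (-1.48 ± 0.70), both with an edgeR adjusted p of 0.789. Without control 1, TRAJ26 and TRAJ43 were called in opposite directions. Standard errors were large, with a median of 1.47 for TRAV.

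Measures of the whole alpha repertoire were taken per mouse. CD8 clones used 5' joining segments (TRAJ31 and higher numbers) less than CD4 clones in each mouse: 44.2%, 45.3%, 48.3% and 48.2% of CD8 clones against 57.4%, 53.1%, 59.8% and 52.2% of CD4 clones in knockout 1, knockout 2, control 1 and control 2. The means were 46.5% ± 2.06 (SD, n = 4) and 55.6% ± 3.58 (two-sided exact sign-flip test, p = 0.13, the smallest that 4 mice allow; 0.208 after adjustment over 10 measures). This share counts TRAJ31, which lies at the cut and was itself called on the CD4 side. In control 2 the lineages differed more in TRAJ31 than in the whole 5' J share, so without TRAJ31 that mouse would go the other way. Other cuts were not tried. CDR3 was longer in CD8 clones in 4 of 4 mice, 41.3 ± 0.198 against 40.6 ± 0.292 nucleotides. The summed share of segments that can join to delta (DV) was lower in CD8 clones in 4 of 4 mice, 7.26% ± 0.569 against 10.4% ± 1.48. That sum counts TRAV4-4-DV10, itself called on the CD4 side, and TRAV16D-DV11, called on the CD8 side. In knockout 1, knockout 2 and control 2 the lineages differed more in TRAV4-4-DV10 than in the whole DV share. Without TRAV4-4-DV10 those mice would go the other way, so the direction is not a property of DV segments as a class. The effective number of TRAJ was higher in CD8 clones in 4 of 4 mice, with means of 33.4 and 30.7, a difference of 2.63 that was -4.01 when cells were counted in place of clones. None of these can pass a threshold of 0.05 with 4 mice.

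**Figure D3:**
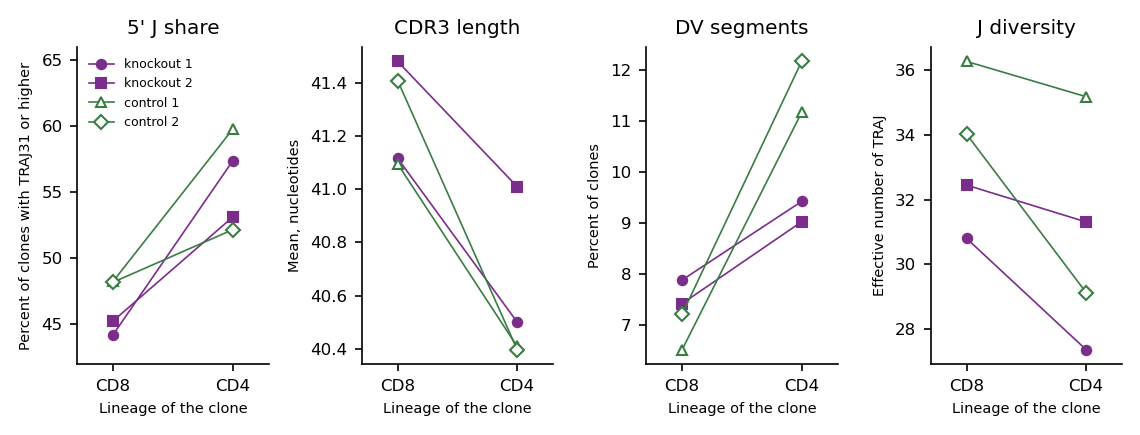
Repertoire measures of CD8 and CD4 clones in each mouse (lines join the 2 lineages of a mouse; purple, knockout; green, control; axes do not start at 0). The 5' J share and the share of DV segments are higher in CD4 clones in 4 of 4 mice, and CDR3 length and the effective number of TRAJ are lower, the last in clones but not in cells. Without TRAV4-4-DV10 the share of DV segments would be higher in CD8 clones in knockout 1, knockout 2 and control 2.

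Between genotypes the same measures differed little. The 5' joining segments took 47.1% and 47.8% of knockout clones and 50.9% and 50.0% of control clones, a difference of -3.01 percentage points with no overlap. The two-sided exact permutation p was 0.33, the smallest that 2 against 2 mice allow, and 0.8 after adjustment over 12 measures. Counted over cells in place of clones the difference was 1.65 points in the other direction. Mean CDR3 length was 40.9 and 41.2 nucleotides against 40.8 and 40.8. Barcodes with at least 2 alpha contigs were 10.4% and 9.05% against 12.5% and 9.41%, and clones of 2 or more cells were 15.5% and 16.4% against 10.9% and 14.1%. The number of CDR3 bases that matched neither segment was 2.81 and 2.81 on average against 2.68 and 2.78.

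The pairing of V and J segments varied with their place in the locus. The TRAV seen span chromosome 14 from 52665385 to 54114209 and the TRAJ from 54394737 to 54455358, all on the plus strand, followed by the constant gene Trac at 54457978 to 54461663. The 78 TRAV were split by position into distal, middle and proximal parts of 26 segments each. Of clones with a proximal TRAV, 71.5%, 73.4%, 76.4% and 74.9% used a 5' TRAJ in knockout 1, knockout 2, control 1 and control 2, against 31.8%, 35.2%, 36.4% and 37.4% of clones with a distal TRAV. The difference was 38.8 percentage points (SD 1.17 over mice), and it was 44 when only clones whose V region matches 1 gene were kept. The median TRAJ number was 24 for distal, 23 for middle and 40 for proximal TRAV. With clones whose V region matches 1 gene it was 23, 26 and 40, and the 5' J share was 32.2%, 37.8% and 76.1%, so the order of the distal and middle parts depended on the clones with an uncertain copy.

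Over the 78 TRAV, position and median TRAJ number had a Pearson r of 0.73 and a Spearman rho of 0.65, as a description across segments that share the same mice. At the proximal end, 98.2% of TRAV21-DV12 clones, 98.0% of TRAV19 clones and 95.5% of TRAV16 clones used a 5' TRAJ. TRAV11 is an exception in the proximal part, because 30 of its 41 clones were joined to TRAJ18. Of 3784 possible pairs of segments seen, 1722 were found, 834 of them in 1 clone and 29 in 10 or more.

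**Figure D4:**
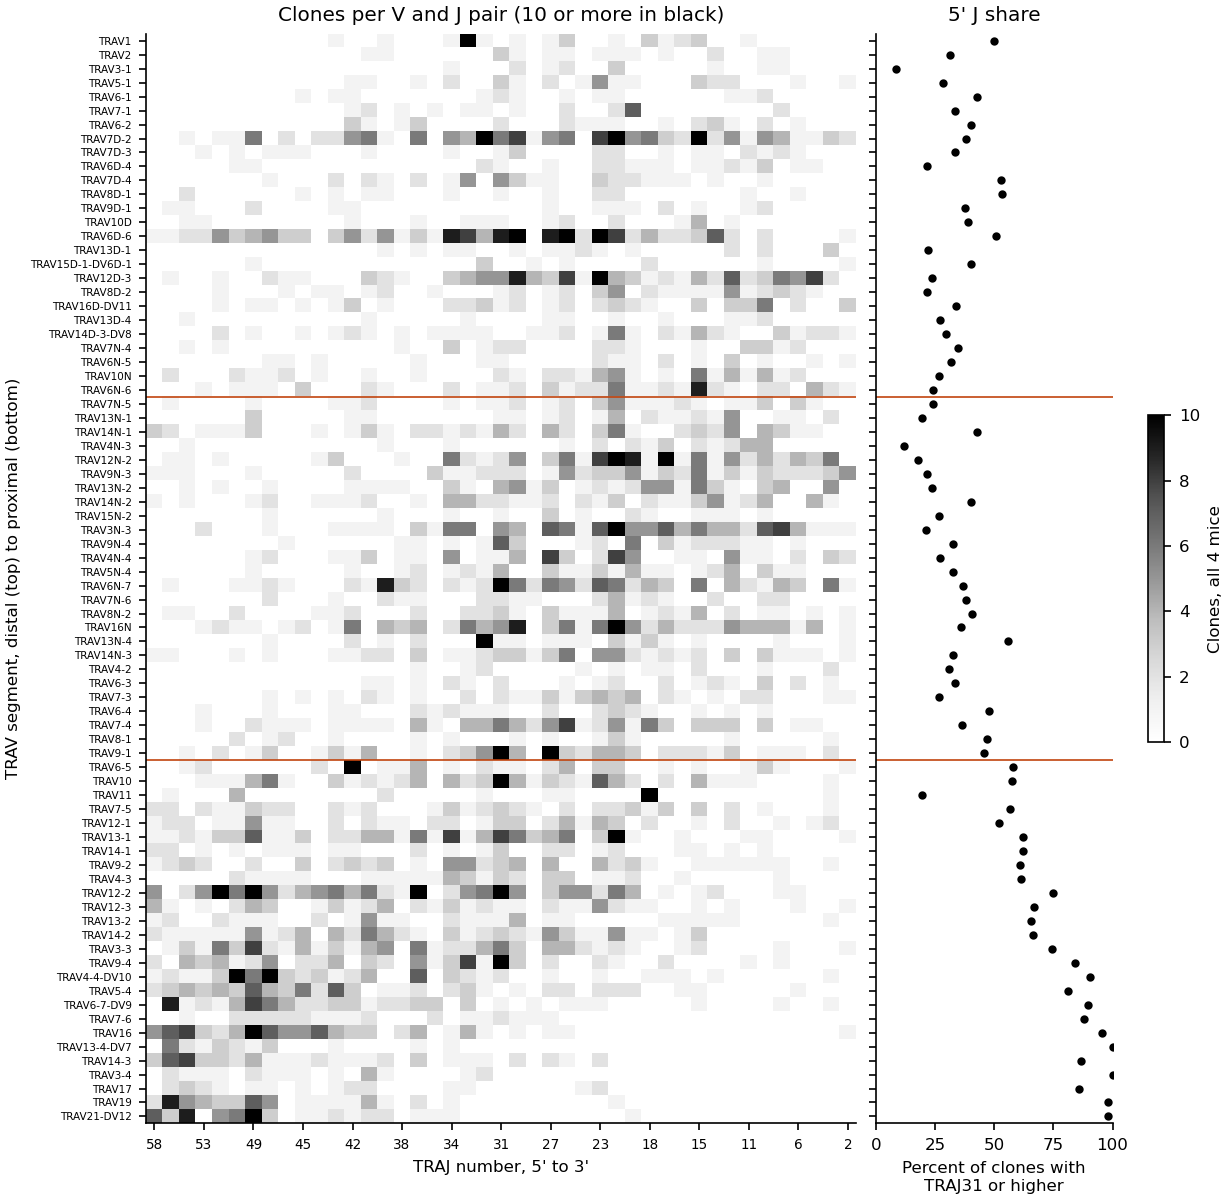
Clones per pair of TRAV (rows, distal at the top) and TRAJ (columns, 5' on the left) over 4 mice, with 10 or more in black, and beside it the percent of clones of each TRAV that used TRAJ31 or a higher number. Orange lines part the distal, middle and proximal segments, and the filled cells move to the 5' TRAJ in the proximal rows, apart from TRAV11 with TRAJ18.

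The lower 5' J share of CD8 clones, with the same cut at TRAJ31, was also seen within parts of the array. Among proximal TRAV, 72.8%, 69.6%, 77.8% and 68.9% of CD8 clones used a 5' TRAJ, against 77.5%, 79.8%, 83.1% and 82.9% of CD4 clones. Among middle TRAV the values were 29.3%, 25.1%, 27.8% and 27.7% against 36.0%, 40.5%, 44.1% and 37.6%. CD8 was lower in 4 of 4 mice in both parts. Among distal TRAV the mice differed in direction, with 34.9% and 39.6% over all clones. TRAV of 1 part also differ in 5' J share, for example 90.4% in TRAV4-4-DV10 and 51.9% in TRAV12-1 in the proximal part. The parts of TRAV use and of TRAJ31 alone in the lineage difference were not tested.

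Both copies of chromosome 14 can rearrange, so a T cell may carry 2 alpha chains. In 687 barcodes at least 2 alpha contigs were found, with a median of 6 UMIs in the first and 3 in the second, and doublets among them were not told apart. Among 542 distinct pairs the TRAJ numbers had a Pearson r of 0.67 (0.62 to 0.72 within mice), a description over cells. The median distance between the 2 TRAJ numbers was 7, against 14 for all pairs of clones of 1 mouse, and 70.1% of pairs were within 10 numbers against 38.8%.

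Among pairs of 10 or more clones, the invariant NKT receptor stood furthest above the product of its segments' shares. TRAV11 with TRAJ18 was found in 30 clones and 205 cells (7, 10, 8 and 5 clones and 54, 96, 32 and 23 cells in the 4 mice), where the product of the shares of the segments gives 1.01 clones. It made up 0.686% and 0.820% of knockout clones and 0.844% and 0.581% of control clones, which overlap, and 2.72% and 4.48% of cells against 2.70% and 1.57%. All 30 had a CDR3 of 45 bases. Klrb1c, which encodes the NK1.1 antigen, had a UMI in 47.5% of its cells against 9.06% of all alpha barcodes, and Zbtb16, a transcription factor of innate-like T cells, in 30.4% against 2.54%. Of its 199 alpha-beta clones, 90 used the beta segments TRBV12-2+TRBV13-2 in 1 name as assigned by the authors' pipeline, against 10.4% of all alpha-beta clones.

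The MAIT receptor, TRAV1 with TRAJ33, was found in 12 clones and 32 cells (3, 6, 1 and 2 clones). It made up 0.294% and 0.492% of knockout clones and 0.105% and 0.233% of control clones (two-sided exact permutation p = 0.33). All 12 had a CDR3 of 36 bases, Zbtb16 had a UMI in 78.1% of its cells, and 9 of its 28 alpha-beta clones used TRBV13-3 against 6.30% of all. Most clones of both receptors, 21 of 30 and 10 of 12, were in neither lineage class.

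Groups of clones with the same TRAV, TRAJ and CDR3 length were also seen among conventional cells. They were chosen after their counts were seen, at 8 clones or more, and are given without a test. TRAV3N-3 with TRAJ22 at 42 bases had 13 clones, 12 of them CD8, with 10 different TRBV. TRAV13-1 with TRAJ22 at 42 bases had 11 clones, 10 of them CD8. TRAV9-1 with TRAJ31 at 39 bases had 13 clones, 9 of them CD4. The beta chains of these groups were mixed.

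In other groups the beta chain was also shared. TRAV6-5 with TRAJ42 at 42 bases had 12 clones in 4 mice, 8 of them CD4 and 1 CD8, and 10 of its 12 alpha-beta clones used TRBV1, which 5.90% of all alpha-beta clones used. TRAV9-1 with TRAJ27 at 42 bases had 12 clones, 9 of them CD4 and 0 CD8. There 10 of 15 alpha-beta clones used TRBV12-2+TRBV13-2, and 12 of 15 had a beta CDR3 of 48 bases, a length that 10.1% of all had. TRAV4-4-DV10 with TRAJ50 at 42 bases had 11 clones, 8 of them CD4 and 0 CD8, and 15 of its 19 alpha-beta clones had that same beta length. TRAV12-2 with TRAJ52 at 45 bases had 8 clones, 6 of them CD8, and TRBV3 was used by 7 of 8 alpha-beta clones, against 8.45% of all.

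Among these groups 1 was seen in knockout mice only. TRAV13N-4 with TRAJ32 at 51 bases had 12 clones of 1 cell each, 6 in knockout 1 and 6 in knockout 2, or 0.536% of 2240 knockout clones. It was found in 0 of 1808 control clones. That count allows a share of up to 0.166%, which covers counting error over pooled clones and not the spread between mice. The germline ends of the segments are tgtgctatggaac for TRAV13N-4 and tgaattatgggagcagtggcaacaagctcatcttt for TRAJ32. The 12 sequences share their first 14 and last 30 bases, and the 7 bases between them, in capitals, vary. The 6 printed are enough to show this.
Knockout 1: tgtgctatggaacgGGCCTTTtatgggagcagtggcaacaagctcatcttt
Knockout 1: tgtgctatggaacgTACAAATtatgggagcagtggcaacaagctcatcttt
Knockout 1: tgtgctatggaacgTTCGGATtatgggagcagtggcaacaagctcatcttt
Knockout 2: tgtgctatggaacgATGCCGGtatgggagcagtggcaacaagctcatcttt
Knockout 2: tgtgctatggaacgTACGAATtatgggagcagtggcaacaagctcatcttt
Knockout 2: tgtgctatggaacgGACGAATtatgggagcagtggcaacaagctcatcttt
None of the 12 cells had a UMI of Cd8a, Cd8b1 or Cd4. Klrb1c had a UMI in 10 (83.3%) and Ncr1, an NK cell receptor, in 5 (41.7%), against 9.06% and 4.35% of all alpha barcodes. Zbtb16 had a UMI in 2. The 12 alpha-beta clones used 6 different TRBV. Klrb1c was also more often found among alpha barcodes of knockout mice in general, in 9.89% and 13.5% against 6.02% and 3.99%, and its part in the absence of the group from controls was not tested. The group was chosen after its counts were seen, and without it TRAJ32 took 3.33% and 3.04% of knockout clones against 2.74% and 1.51%.

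Identical alpha sequences in several mice were counted, since clones were defined within a mouse. Of 3964 distinct alpha sequences (TRAV, TRAJ and CDR3 nucleotides), 53 were found in 2 mice, 5 in 3 and 7 in all 4. The 65 shared sequences had 1.43 unmatched bases on average and the 3899 private ones 2.83, and 36.9% against 14% had none. The 7 found in all 4 mice were 4 sequences of TRAV11 with TRAJ18, which differ within the junction, and the sequences of TRAV12D-3 with TRAJ5, TRAV21-DV12 with TRAJ49 and TRAV1 with TRAJ33 shown above. The 2 invariant receptors among them were paired with many beta chains, such as 63 alpha-beta pairs in the 65 cells of the leading TRAV11 with TRAJ18 sequence.

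The 2 conventional receptors in all 4 mice had CD8 UMIs in every cell. TRAV12D-3 with TRAJ5 was found in 64 cells, 35, 26, 1 and 2 in knockout 1, knockout 2, control 1 and control 2. Its cells formed 9 alpha-beta clones, and all 9 used TRBV15, which 3.51% of all alpha-beta clones used, with a beta CDR3 of 42 bases and 2 different TRBJ. The cells lay mostly in the knockout mice, which was seen before it was counted and was not tested. TRAV21-DV12 with TRAJ49 was found in 38 cells (9, 21, 2 and 6), and all 6 of its alpha-beta clones used TRBV20, against 3.44% of all, with 1 TRBJ and a beta CDR3 of 36 bases. Of the sequences in 3 mice, TRAV12-2 with TRAJ52 was found in 11 cells with 3 alpha-beta clones, all TRBV3, and TRAV4-4-DV10 with TRAJ50 in 10 cells, 6 of them with a Cd4 UMI and none with a CD8 UMI.

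The beta CDR3 of TRAV12D-3 with TRAJ5 differed between mice, as the sequences from the 2 controls show, with all bases in lower case.
Control 1: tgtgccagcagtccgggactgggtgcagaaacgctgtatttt
Control 2: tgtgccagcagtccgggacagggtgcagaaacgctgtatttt

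**Figure D5:**
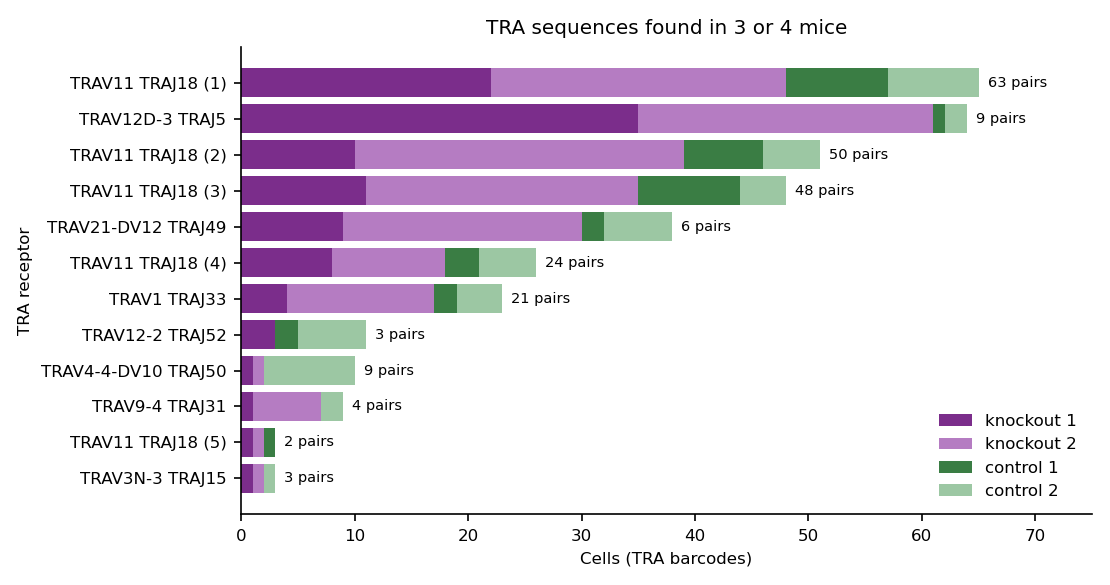
Cells with each alpha sequence found in 3 or 4 mice, stacked by mouse (purple, knockout; green, control), with the number of alpha-beta pairs beside each bar. Numbers in brackets tell apart the 5 sequences of TRAV11 with TRAJ18. TRAV11 with TRAJ18 has nearly as many pairs as cells, whereas TRAV12D-3 with TRAJ5 has 9 pairs in 64 cells and TRAV21-DV12 with TRAJ49 has 6 in 38.

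Most clones were of 1 cell, 84.5% and 83.6% in knockout mice and 89.1% and 85.9% in controls. The largest alpha clones were not spread evenly. TRAV13D-1 with TRAJ4 had 217 cells in control 2, 14.8% of its alpha barcodes (exact binomial 95% interval 13% to 16.7%, counting error only), with 2917 CD8 and 0 Cd4 UMIs. TRAV7N-6 with TRAJ28 had 110 cells in the same mouse (7.50%, 6.21% to 8.97%), with 203 Cd4 and 6 CD8 UMIs, so that it was in neither class. TRAV6-2 with TRAJ15 had 63 cells in knockout 1 (3.17%, 2.44% to 4.04%), with 541 CD8 and 3 Cd4 UMIs. Clones of 5 or more cells numbered 65 of 1021 and 64 of 1219 in knockout mice and 15 of 948 and 25 of 860 in controls. The knockout mice also had more alpha barcodes, 1988 and 2143 against 1184 and 1466. More cells of a clone can be seen where more are sampled, and the counts were not scaled for this. They also count alpha sequences paired with many beta chains, such as those of TRAV11 with TRAJ18, which are not single expanded clones.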

How the data were processed

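Reads were processed by the authors with Cell Ranger 8.0.1 on GRCm39, and Seurat 5.0.1 in R 4.4.1 is also named, per the submitters' processing notes. The deposited tables used are contig annotations with UMI counts and gene by barcode matrices of UMI counts, which are whole numbers as deposited. All 7468 deposited alpha contigs are productive, so unproductive rearrangements are not measured. 40 alpha barcodes were not in the matrices and gave no lineage.

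Clone counts per segment were tested with edgeR 4.0.16 (R 4.3.3; robust quasi-likelihood fit, two-sided, Benjamini-Hochberg over the table, threshold 0.05), with all alpha clones of the mouse (and lineage) as library size. Errors of log2 differences are SE implied by the p. Single values were compared by exact tests in scipy 1.17.1. Code was checked on simulated data. Germline sequences and positions are from GRCm39 with GENCODE vM39, and V exons that stop short of the recombination signal were extended to it. A base is unmatched where neither germline end explains it.

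Members and lists were chosen with earlier results of these data known. Named are the 5 commonest segments of each kind, up to 10 called per direction or else the 3 smallest p, the invariant pairs, the edge of the clone limit, the 3 largest clones and the receptors in most mice. DESeq2 1.42.0, other filters, scalings, lineage rules, a replicate block and leaving out each mouse were alternatives, and fits without clones of 5 or more cells, a crossed block and 1-gene V regions were added after the data were seen. P-values measure only the spread between these mice, which the labels call biological replicates. UMI counts and clone shares carry counting error from a median of 4 to 6 UMIs a contig.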

Additional observations from a re-analysis of the deposited data

Results flagged for a closer look

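In 86 sets of 4 mice the highest or lowest value was checked against the others, and 5 stood apart, where chance marks about 1 in 20. TRAJ26 took 5.65% of CD4 clones in control 2, against 0.559% to 1.39% in the other 3 mice. TRAV9-4 took 1.83% of CD8 clones in control 1, against 0.928% to 0.984%. TRAV9D-1 took 0.192% of CD8 clones in knockout 1, which is 1 clone, and 0% in the others. The mean CDR3 of CD4 clones was 41 nucleotides long in knockout 2 and 40.4 to 40.5 in the others. The MAIT receptor took 0.371% of CD8 clones in knockout 2 and 0% in the others. The TRAJ26 value bears on its call between lineages, which the report gives with all 4 mice.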

How the results depend on the processing

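Of 879 alternative values of named segments, 750 kept direction and side of the threshold, 121 kept the direction only, 3 newly passed and 5 changed direction. Those 5 were TRAJ40 by genotype over cells (0.22), the TRAV16 family by genotype over cells (0.93) and without control 1 (0.12, in a range of -0.49 to 0.12 with 1 mouse left out), and the interaction of TRAJ26 without control 2 (-0.84, in a range of -0.84 to 2.67) and of TRAJ48 over cells (-0.29). None of the 5 was a called value. Counting cells in place of clones called 2 TRAV and 2 TRAJ by genotype, 0 families by genotype, 8 TRAV and 1 TRAJ by lineage. DESeq2 called 0 families by genotype, 7 TRAV and 0 TRAJ by lineage. TRAJ calls by lineage were 4 with contigs of 2 or more UMIs, 3 with a lineage of 2 or more UMIs, 0 in barcodes free of other markers and 5 without clones of 5 or more cells. With 1 mouse left out, where a lone mouse is assumed to vary like the others, calls ranged over 0 to 0 TRAV, 0 to 1 TRAJ and 0 to 0 families by genotype, over 10 to 16 TRAV, 0 to 10 TRAJ and 6 to 11 families by lineage, and over 0 to 2 TRAJ for the interaction.

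Over cells, the knockout minus control difference was 1.65 points for the 5' J share, 0.211 for the effective TRAJ number, 1.46 points for the invariant NKT receptor, 0.309 unmatched bases and -1.82 points for junctions with none. The CD8 minus CD4 difference over cells was 0.443 nucleotides, -13.9 effective TRAV, -4.01 effective TRAJ, -3.22 points for the invariant NKT receptor and 0.301 for the MAIT receptor. Leaving out 1 mouse moved the genotype difference of CDR3 length over 0.123 to 0.366 nucleotides and of unmatched bases over 0.0261 to 0.132. The proximal minus distal 5' J share was 44 points with V regions of 1 gene. The causes were not tested.

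The replicate block called 0 TRAV, 0 TRAJ and 1 family by genotype, as without it. Same-numbered mice deviated with a correlation of -0.12 (TRAV) and -0.0475 (TRAJ). With 2 mice a group the other pairing must give the same values with the sign reversed (0.12 and 0.0475). The correlation therefore cannot show whether same-numbered mice shared a batch. The crossed pairing called 0, 0 and 0. Keeping productive contigs only changed nothing, since all are productive. A median of 4 to 6 UMIs per contig and few Cd4 UMIs limit segment names and lineage classes, and 2 mice a group limit the genotype comparison.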
